A study of Homo sapiens with 18 samples.

Results

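DKK1, a secreted antagonist of Wnt signalling, was low in OVCAR5 cells given stearate and high in those given oleate. It averaged 6.09 ± 1.41 TPM without fatty acid, 2.45 ± 0.887 TPM with stearate and 8.33 ± 0.970 TPM with oleate (SD, n = 6 each). TPM is the length-corrected share of a gene among all transcripts, on a scale whose total is the same in every sample. It was read with 9 other Wnt genes, a group made up of the secreted antagonists DKK1 and DKK3, the co-receptors LRP5 and LRP6, the receptor-removing ligases ZNRF3 and RNF43, the feedback scaffold AXIN2, β-catenin (CTNNB1) and the transcription factors TCF7 and TCF7L2. These 10 genes were picked by symbol from 60483 genes. DKK1 was picked because it was low with stearate and high with oleate in these same samples, so its fatty acid values are a description and were not tested. A mean of at least 1 TPM over the 18 samples was reached by 8 of the 10 genes, as it was by 13789 genes in all. RNF43 at 0.152 TPM and AXIN2 at 0.334 TPM lay below that limit and were not tested, and the next gene up, DKK3, lay at 3.08 TPM.

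Canonical Wnt signalling starts when a Wnt ligand joins a Frizzled receptor with LRP5 or LRP6 at the cell surface. The complex that marks β-catenin for degradation is then held back, and β-catenin enters the nucleus and activates genes with TCF and LEF factors. DKK1 binds LRP5 and LRP6 and keeps them from Wnt ligands, ZNRF3 and RNF43 take Frizzled receptors off the membrane, and AXIN2 rebuilds the degradation complex. DKK1, AXIN2, RNF43, ZNRF3 and TCF7 are themselves known targets of β-catenin in many cell types, which makes them feedback genes.

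OVCAR5 cells are a human ovarian cancer line in long use, labelled wild type and high grade serous. All cells were kept for 24 h in medium with 5% fatty acid-free albumin. No fatty acid, stearate or oleate was combined with DMSO or with CAY10566, which makes 6 conditions of 3 replicates: DMSO and CAY10566 alone, oleate+DMSO and oleate+CAY10566, and stearate+DMSO and stearate+CAY10566. Stearate, a saturated fatty acid, and oleate, the monounsaturated fatty acid that stearoyl-CoA desaturase 1 (SCD1) makes from it, were given at 50 µM, CAY10566, an inhibitor of SCD1, at 1 µM, and DMSO is the vehicle. Samples with and without CAY10566 were pooled into a control group (no fatty acid), a stearate group and an oleate group of 6 samples each. The sources give 3 replicates per treatment and state in general that work in cultured cells was repeated independently, without saying whether these replicates were separate cultures, so a p-value measures the spread between these samples.

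The expression values of the whole series behaved alike between libraries, with 1 exception that touches this group. The mean correlation of a library with the others of its condition was 0.982 to 0.986, and no columns held identical values. Epithelial markers were abundant (5 of 5 at or over 1 TPM, summed level 2621.96 to 2740.01 TPM in control, 2117.17 to 2251.81 with stearate and 2391.88 to 2679.59 with oleate). Of 5 markers of serous ovarian carcinoma, PAX8 was at 11.8 TPM and MSLN at 1.02, whereas WT1 was at 0.126, SOX17 at 0.0411 and MUC16 at 0.632, so 3 of the 5 defining markers of the labelled type were under 1 TPM. Their summed level was 11.94 to 14.79 TPM in control, 9.4 to 14.75 with stearate and 13.16 to 19.17 with oleate. Of 7 intestinal epithelial markers 3 reached 1 TPM, CDX2 at 3.76, KRT20 at 1.69 and MUC2 at 1.62. LGALS4 was at 0.349, VIL1 at 0.0272, CDH17 at 0.0189 and CDX1 at 0.00944. The 7 summed to between 5.53 and 10.65 TPM. Of 4 leukocyte markers 1 reached 1 TPM, CD68, a lysosomal glycoprotein, at 94.5, while PTPRC was at 0.00556 and CD3E at 0.025. Their sum was 83.05 to 110.77 TPM in control, 81.88 to 90.04 with stearate and 96.11 to 113.17 with oleate. Of 4 fibroblast markers 1 reached 1 TPM, COL1A1 at 5.04, while COL1A2 was at 0.0294. Their sum was 3.26 to 6.42 TPM in control, 4.01 to 7.26 with stearate and 4.16 to 7.52 with oleate. The sum of 2 endothelial markers, neither at 1 TPM on average, was 1.07 to 1.6 TPM in control, 0.52 to 0.83 with stearate and 1.39 to 2.05 with oleate. The exception was CAY10566 replicate 3, the library with the lowest mean correlation. It was the highest of the 6 control samples for 7 of the 8 tested genes, DKK1 being the exception, and values without it stand beside those genes and beside the counts that it moved. What sets it apart was not tested.

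The sequence just before the DKK1 gene is shown because the TCF factors that carry β-catenin to DNA recognise short runs of letters such as those marked in it. DKK1 (ENSG00000107984) lies at chr10:52314281-52318042 on the plus strand of GRCh38. The 250 bases before its start, chr10:52314031-52314280 on the plus strand, are printed from RefSeq (GRCh38.p14) with capitals marking 2 TCF cores and 1 TEAD core.

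DKK1: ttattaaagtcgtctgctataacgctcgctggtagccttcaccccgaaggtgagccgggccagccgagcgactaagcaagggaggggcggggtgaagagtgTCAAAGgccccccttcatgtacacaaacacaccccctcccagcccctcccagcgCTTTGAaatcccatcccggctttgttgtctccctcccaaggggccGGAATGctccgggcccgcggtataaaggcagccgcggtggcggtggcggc

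The TCF core was searched as TCAAAG and the TEAD core as GGAATG, on both strands and with no overlap between them here, after the DKK1 sequence had been seen. The TCF cores began 149 and 95 bases before the start of the gene and the TEAD core 50 bases before it. Of 35116 RefSeq windows of 250 bases, 11.2% held a TCF core, 0.977% held 2 or more, and 11.9% held a TEAD core. An entry was found for 6 of the 10 genes, with 10 windows. The DKK1 window was the only 1 of the 10 with a TCF core, and a TEAD core stood in 2 windows, that of DKK1 and 1 of RNF43. A match describes letters in this window and shows no binding.

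DKK1 was measured in every sample. In DMSO it was 4.74, 4.66 and 8.27 TPM, and in CAY10566 7.12, 5.56 and 6.19 TPM. In stearate+DMSO it was 3.21, 1.79 and 2.97 TPM, and in stearate+CAY10566 1.17, 3.41 and 2.15 TPM. In oleate+DMSO it was 7.84, 9.73 and 7.86 TPM, and in oleate+CAY10566 7.9, 7.31 and 9.36 TPM. All 6 stearate samples lay below all 6 control samples, the highest stearate sample at 3.41 and the lowest control sample at 4.66. The oleate samples lay above 5 of the 6 control samples, and DMSO replicate 3 at 8.27 stood among them. In bulk RNA, less DKK1 RNA per cell and fewer cells that express it cannot be told apart. The summed epithelial markers, at most 2251.81 TPM with stearate and at least 2621.96 in control, did not overlap between these groups. Of these markers, KRT7, KRT8 and KRT18 did not overlap. EPCAM (311.44 to 338.68 TPM with stearate, 315.61 to 353.22 in control) and CDH1 (37.37 to 51.5 and 43.91 to 58.26) did overlap. Of all genes, 3.09% had a stearate group wholly below the control group. The endothelial sum did not overlap either, at most 0.83 TPM with stearate and at least 1.07 in control. It adds 2 genes that each averaged under 1 TPM, so no change is read from it. The part of either sum in the DKK1 values was not tested.

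**Figure D1:**
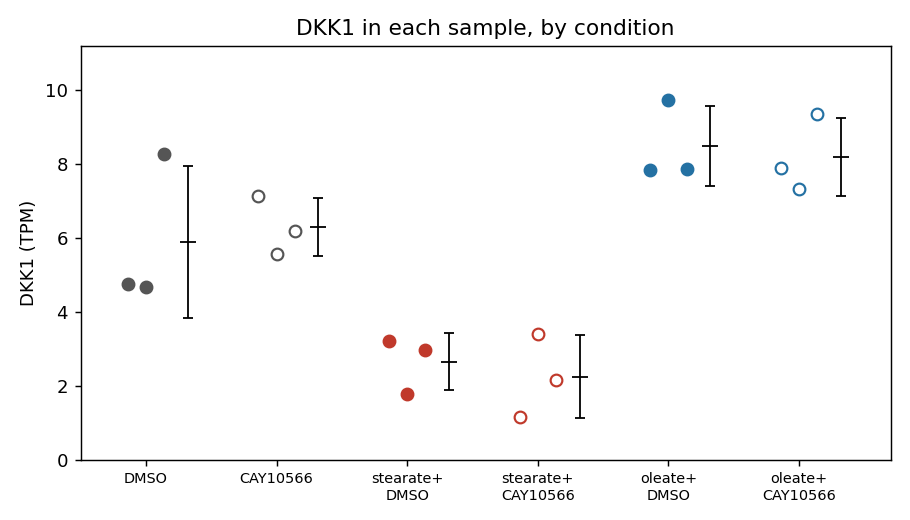
DKK1 level (TPM, linear axis from 0) in each of the 18 samples by condition, filled points with DMSO and open points with CAY10566, with the mean ± SD (n = 3) beside them. The stearate samples lie between 1.17 and 3.41 TPM, below every control and oleate sample.

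By condition, the means ran from 2.24 ± 1.12 TPM in stearate+CAY10566 and 2.66 ± 0.760 in stearate+DMSO, through 5.89 ± 2.06 in DMSO and 6.29 ± 0.785 in CAY10566, to 8.19 ± 1.06 in oleate+CAY10566 and 8.48 ± 1.09 in oleate+DMSO (SD, n = 3 each). Neighbours within a fatty acid group overlapped. Stearate+DMSO and DMSO did not overlap, and neither did CAY10566 and oleate+CAY10566, the next step in that order across fatty acids.

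On the log2(TPM + 1) scale, which understates the change of a low gene, DKK1 was -1.06 (SE 0.16) with stearate and 0.41 (SE 0.16) with oleate, both against control, and -1.47 (SE 0.16) with stearate against oleate. Ranked by size among the 13789 genes, the stearate value was number 28 of the falls, the oleate value number 478 of the rises and the stearate against oleate value number 10 of the falls. Among all genes, 3.09% had a stearate group wholly below the control group and 7.28% a stearate group wholly below the oleate group. Since DKK1 was picked on these contrasts, nothing is read from those shares. The stearate and oleate comparisons share the 6 control samples. Within the DMSO samples the values were -0.90 for stearate and 0.49 for oleate, and within the CAY10566 samples -1.22 and 0.33. Without CAY10566 replicate 3 they were -1.05 and 0.42. An antisense RNA gene, PRKG1-AS1, overlaps the start of DKK1 on the other strand at a mean of 0.342 TPM, and the sources used here do not say whether the quantification used the strand.

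CAY10566 was not part of the choice of DKK1 and was tested with limma. Over 9 against 9 samples, with the fatty acid as a covariate, the DKK1 difference was -0.05 (95% interval -0.32 to 0.23, adjusted p = 0.999). Within a fatty acid group it was 0.12 without fatty acid (interval -0.38 to 0.61, adjusted p = 0.882), -0.21 with stearate (interval -0.71 to 0.29, adjusted p = 0.938) and -0.04 with oleate (interval -0.54 to 0.45, adjusted p = 0.998). The interaction of CAY10566 with stearate was -0.33 (interval -1.03 to 0.38, adjusted p = 0.758) and that with oleate -0.16 (interval -0.86 to 0.54, adjusted p = 0.879). None of these tests passed, and each interval gives the range of differences that the samples leave possible. As a description, the fatty acid group took 84.2% of the variance of DKK1 over the 18 samples, CAY10566 0.117% and the spread within conditions 14.7%.

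**Figure D2:**
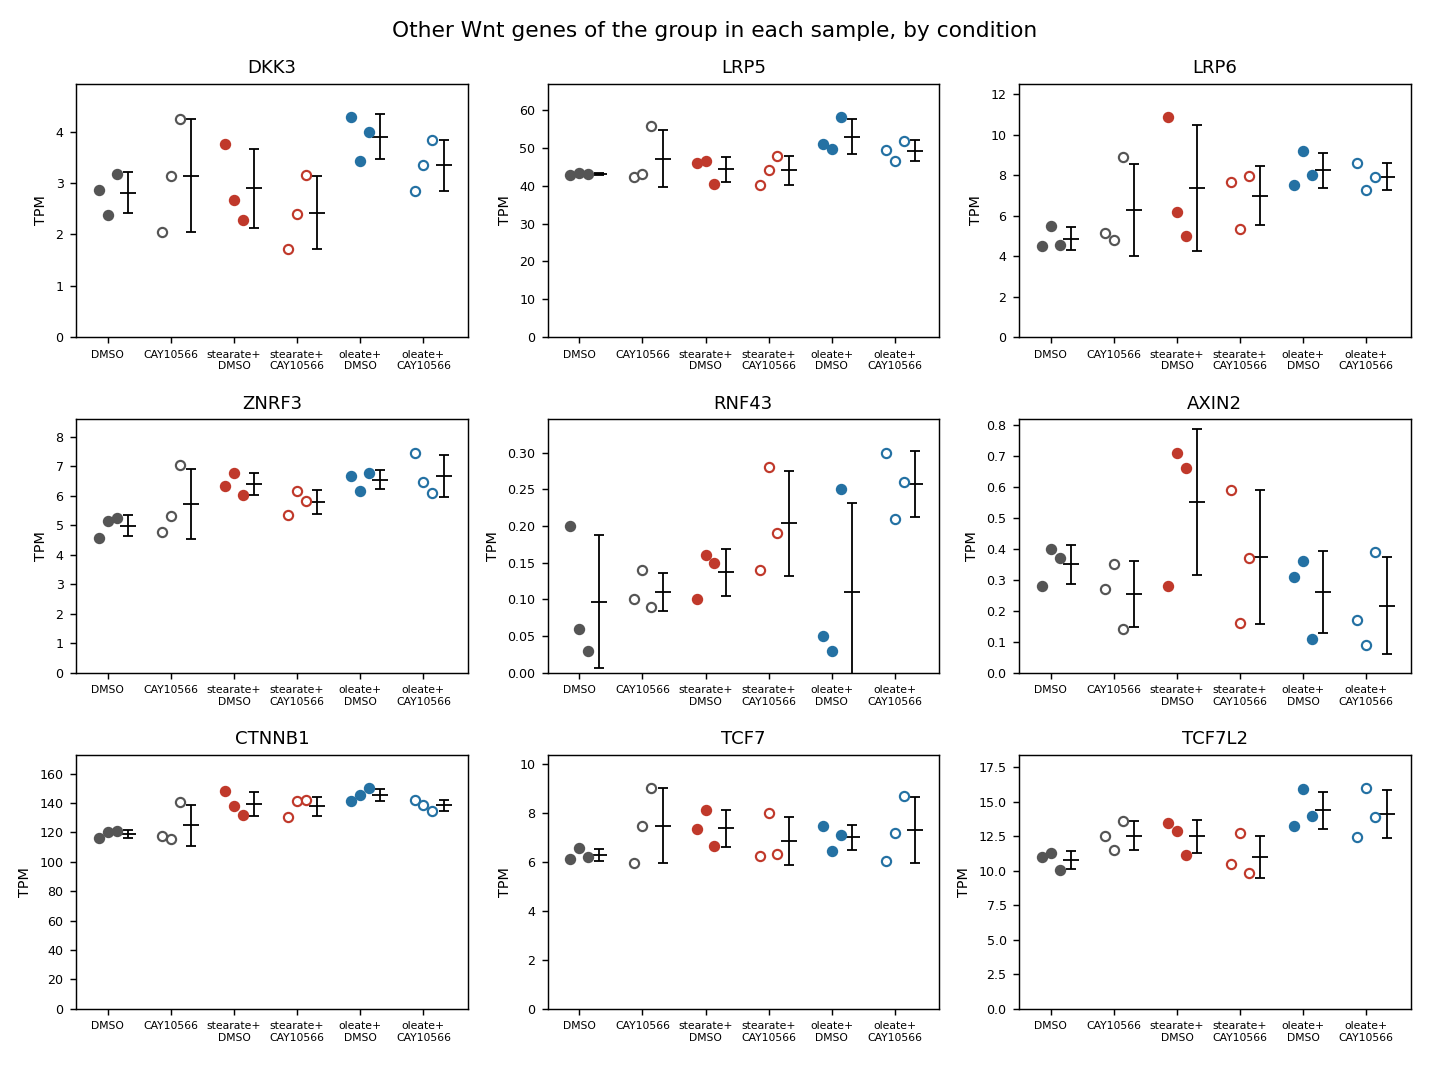
TPM of the other 9 genes in each sample by condition (linear axes from 0, a separate scale per gene), filled points with DMSO and open points with CAY10566, with mean ± SD (n = 3). The lower SD bar of RNF43 in oleate+DMSO is cut off at 0. CAY10566 replicate 3 is the highest open grey point for LRP5 (55.8 TPM), LRP6 (8.89), ZNRF3 (7.06) and CTNNB1 (141.01).

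Of the other 7 tested genes, 1 changed in the groups of 6 samples, LRP6 with oleate. A gene was counted as changed, or called, where limma gave an adjusted p (FDR, by the Benjamini-Hochberg method over all 13789 genes) under 0.05 and the level was more than 25% higher, or as far lower on the log2 scale (a log2 fold change beyond 0.32 either way, the fold limit). With stearate 0 of the 7 were changed, against 5.35% of all genes tested. With oleate 1 of 7 was changed, LRP6, against 6.9% of all genes, and between stearate and oleate 0 of 7, against 6.37%. At the FDR alone, 1 of 7 passed with stearate (19.4% of all genes), 4 with oleate (25.7%) and 2 between stearate and oleate (21.1%). After rescaling by size factors these counts were 1, 1 and 2, beside 18.1%, 18.2% and 22% of all genes. Leaving out CAY10566 replicate 3 gave 1 called gene with stearate (7.72% of all genes), 2 with oleate (11.3%) and 1 between them (6.73%), and 3, 5 and 3 at the FDR alone (26.8%, 34.2% and 25% of all genes). Over every single library left out, the counts at the FDR alone ran from 1 to 3, 2 to 5 and 0 to 3, the 0 being without stearate+DMSO replicate 3 or stearate+CAY10566 replicate 1. With all samples, an unadjusted p under 0.05 was reached by 1, 5 and 3 of the 7 in the same order, beside 33.8%, 38% and 34% of all genes. The median log2 fold change of the 7 was 0.05 with stearate, 0.23 with oleate and -0.19 for stearate against oleate, beside 0.06, 0.09 and -0.03 over all genes.

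**Figure D3:**
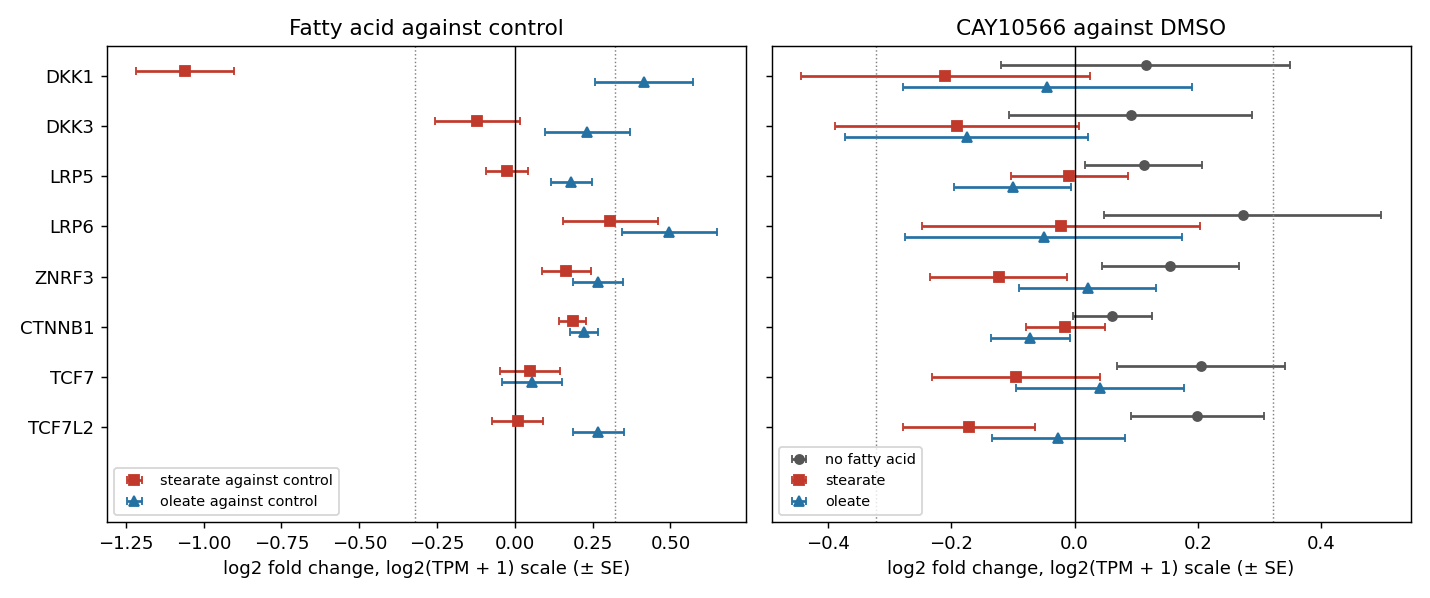
Log2 fold change (log2(TPM + 1) scale, ± SE) of the 8 tested genes, on the left for stearate and oleate against control (n = 6 each) and on the right for CAY10566 against DMSO within each fatty acid group (n = 3 each), with dotted lines at the fold limit. DKK1 is the only gene left of the lower line on the left (-1.06 with stearate), and on the right every value lies between the dotted lines.

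DKK3, a divergent secreted relative of DKK1, was low, and none of its differences passed the test over all samples. It ranged from 2.04 to 4.25 TPM in control (median 3.00), from 1.72 to 3.75 with stearate (median 2.52) and from 2.85 to 4.29 with oleate (median 3.63), and all 3 groups overlapped. The log2 differences were -0.12 with stearate (SE 0.14, adjusted p = 0.562) and 0.23 with oleate (SE 0.14, adjusted p = 0.219), or -0.04 (adjusted p = 0.866) and 0.32 (adjusted p = 0.0679) without CAY10566 replicate 3. Stearate against oleate gave -0.35 (SE 0.14, adjusted p = 0.0719), which passed the test with stearate+DMSO replicate 1 left out (-0.43, adjusted p = 0.0270) or with CAY10566 replicate 3 left out (-0.35, adjusted p = 0.0447). DKK3 overlaps USP47 on the other strand, which was at 23.6 TPM.

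LRP5 and LRP6 are the co-receptors that DKK1 binds. LRP5 was the more abundant by far, at 46.8 ± 5.08 TPM against 6.94 ± 1.87 TPM for LRP6 (SD, n = 18). LRP6 was 4.52, 5.51 and 4.56 TPM in DMSO and 5.15, 4.79 and 8.89 in CAY10566. With stearate it was 10.89, 6.19 and 5.01 TPM (DMSO) and 7.65, 5.32 and 7.98 TPM (CAY10566), so that the stearate samples spread over and above the control samples. With oleate it was 7.51, 9.21 and 8.02 TPM (DMSO) and 8.6, 7.26 and 7.9 TPM (CAY10566), above 5 of the 6 control samples.

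LRP6 rose with oleate by 0.50 on the log2 scale (SE 0.15, adjusted p = 0.0241). That call depended on the setting. It was lost in 9 of 28 alternatives, among them rescaling by size factors (0.41, adjusted p = 0.0520), removal of the trend on transcript length and GC content (0.36, adjusted p = 0.0566) and the CAY10566 samples alone (0.33, adjusted p = 0.575), and its adjusted p over all alternatives ran from 0.00161 to 0.575. The fit on the CAY10566 samples alone called 0% of all genes higher with oleate and 0.0218% lower (9.65% had an unadjusted p under 0.05), so a loss there is nothing particular to LRP6. In the DMSO samples alone the value was 0.66 (adjusted p = 0.0584), and without CAY10566 replicate 3 it was 0.62 (adjusted p = 0.00161). With stearate LRP6 was 0.31 higher (SE 0.15, adjusted p = 0.166), and 0.43 higher (adjusted p = 0.0231) without CAY10566 replicate 3. The difference between stearate and oleate was -0.19 (SE 0.15, adjusted p = 0.414).

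LRP5 ranged from 42.35 to 43.32 TPM in 5 control samples and was 55.8 in CAY10566 replicate 3. It ranged from 40.24 to 47.97 TPM with stearate (median 45.0) and from 46.56 to 58.27 with oleate (median 50.4). The log2 difference was -0.02 with stearate (SE 0.07, adjusted p = 0.828) and 0.18 with oleate (SE 0.07, adjusted p = 0.0520). These became 0.04 (adjusted p = 0.639), a change of sign, and 0.24 (adjusted p = 0.00174) without CAY10566 replicate 3. Stearate against oleate gave -0.21 (SE 0.07, adjusted p = 0.0336), short of the fold limit. That difference passed the FDR in 18 of 28 alternatives, with values from -0.25 to -0.12.

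Of the ligases that remove Frizzled receptors, ZNRF3 was present and RNF43 close to absent. ZNRF3 ranged from 4.58 to 7.06 TPM in control (median 5.19), from 5.36 to 6.79 with stearate (median 6.11) and from 6.09 to 7.47 with oleate (median 6.57). Every stearate and oleate sample exceeded all control samples except CAY10566 replicate 3, the maximum of 7.06. With oleate ZNRF3 was 0.27 higher (SE 0.08, adjusted p = 0.0200), within the fold limit. It passed the FDR in 25 of 28 alternatives, not after size factors, with values from 0.18 to 0.34. Without CAY10566 replicate 3 it was past the fold limit (0.34, adjusted p = 0.000633). With stearate it was 0.17 higher (SE 0.08, adjusted p = 0.149), and 0.24 (adjusted p = 0.0118) without that library. In the DMSO samples alone the stearate value was 0.30 (adjusted p = 0.0390 by limma in that fit and 0.0759 in the model of 6 conditions). In the CAY10566 samples alone it was 0.03 (adjusted p = 0.953). RNF43 was between 0.03 and 0.3 TPM in all 18 samples.

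AXIN2, the feedback scaffold often used as a readout of β-catenin activity, was also near the floor. It lay between 0.14 and 0.4 TPM in control, 0.16 and 0.71 with stearate and 0.09 and 0.39 with oleate. The 3 groups overlapped, and at this level AXIN2 was only noted as low.

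CTNNB1, β-catenin itself, was the most abundant gene of the group at 134 ± 11.4 TPM (SD, n = 18) and the least variable, with a coefficient of variation of 8.53%, against 48.1% for DKK1. It was 115.96, 120.17 and 120.99 TPM in DMSO and 117.72, 115.42 and 141.01 in CAY10566. With stearate it ranged from 130.22 to 148.2 TPM (median 140) and with oleate from 134.5 to 149.97 (median 142). All stearate and oleate samples were above 5 of the 6 control samples, and CAY10566 replicate 3 lay among them. The difference passed the FDR but not the fold limit with stearate (0.19, SE 0.04, adjusted p = 0.00726) and with oleate (0.22, SE 0.04, adjusted p = 0.00317), 2 comparisons that share their controls. Without CAY10566 replicate 3 it was 0.23 (adjusted p = 0.000167) and 0.26 (adjusted p = 4.68e-05). After size factors it was 0.13 (adjusted p = 0.00921) and 0.12 (adjusted p = 0.0136). Among the CAY10566 samples alone it was 0.15 (adjusted p = 0.378) and 0.16 (adjusted p = 0.518). Stearate against oleate gave -0.04 (SE 0.04, adjusted p = 0.608).

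TCF7L2 and TCF7 carry β-catenin to DNA. TCF7L2 ranged from 10.05 to 13.62 TPM in control (median 11.4), from 9.83 to 13.45 with stearate (median 11.9) and from 12.48 to 15.98 with oleate (median 13.9). It was 0.27 higher with oleate than in control (SE 0.08, adjusted p = 0.0232) and -0.26 with stearate against oleate (SE 0.08, adjusted p = 0.0307), both within the fold limit, and did not pass with stearate against control (0.01, SE 0.08, adjusted p = 0.953). TCF7L2 passed the FDR with oleate in 22 of 28 alternatives, not after size factors, and for stearate against oleate in 20 of 28. With CAY10566 replicate 3, its highest control sample, left out, the values were 0.31 with oleate (adjusted p = 0.00663) and 0.05 with stearate (adjusted p = 0.675). TCF7 ranged from 5.97 to 9.01 TPM in control, from 6.26 to 8.14 with stearate and from 6.04 to 8.71 with oleate. Its differences were 0.05 with stearate (SE 0.10, adjusted p = 0.762) and 0.05 with oleate (SE 0.10, adjusted p = 0.721), and the fatty acid took 2.35% of its variance. With CAY10566 replicate 3 left out, at 9.01 TPM its highest control sample, they were 0.12 (adjusted p = 0.319) and 0.13 (adjusted p = 0.283). TCF7 overlaps SKP1 on the other strand, a gene at 505 TPM.

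Because TPM is corrected for length, levels can be ordered across the group. Means over the 18 samples fell from CTNNB1 (134 TPM) through LRP5 (46.8) and TCF7L2 (12.6) to TCF7 (7.05), LRP6 (6.94), ZNRF3 (6.02), DKK1 (5.62) and DKK3 (3.08). The SDs of TCF7 (0.935), LRP6 (1.87), ZNRF3 (0.806) and DKK1 (2.71) exceed or come close to the gaps between these 4 genes, so their order does not stand beyond their spread. The SD of DKK1 also exceeds its gap to DKK3, whereas TCF7, LRP6 and ZNRF3, the lowest sample of which was at 4.52 TPM, lay above DKK3, at most 4.29 TPM, in all 18 samples. As a description, the place of the DKK1 mean also differed by fatty acid. With stearate its mean (2.45 TPM) was under that of DKK3 (2.66), and with oleate its mean (8.33) was over those of LRP6 (8.08), TCF7 (7.16) and ZNRF3 (6.61). The gap to DKK3 with stearate (SDs 0.887 for DKK1 and 0.712 for DKK3) lies inside the spread. So does the gap to LRP6 with oleate (SDs 0.970 and 0.718).

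CAY10566 changed none of the 8 tested genes by limma over 9 against 9 samples, where 0% of all genes were called and 5.42% had an unadjusted p under 0.05. The 8 log2 differences lay between -0.09 and 0.07 and each had an adjusted p of 0.999. None of the 8 was called by limma within a fatty acid group, where 0% of all genes were called without fatty acid, 0.00725% with stearate and 0% with oleate. None of the 8 had an unadjusted p under 0.05 there either, beside 10.1%, 5.52% and 4.72% of all genes. None was called in the interaction with stearate (0.00725% of all genes called, 9.36% at an unadjusted p under 0.05) or with oleate (0% and 10.3%). At that unadjusted level, TCF7L2 was the lone gene of the group to pass, in the interaction with stearate (-0.37, SE 0.15, adjusted p = 0.513 by limma). Without fatty acid TCF7L2 was 12.5 ± 1.07 TPM with CAY10566 and 10.8 ± 0.654 with DMSO, and with stearate it was 11.03 ± 1.51 and 12.5 ± 1.19 (SD, n = 3 each). Without fatty acid 8 of the 8 differences were above 0, from 0.06 to 0.27, as were 57.3% of all genes. Without CAY10566 replicate 3 it was 5 of 8, from -0.10 to 0.14, and 48.2% of all genes. With stearate 0 of 8 were above 0 (-0.21 to -0.01), beside 35.7% of all genes, and with oleate 2 of 8 (-0.18 to 0.04), beside 38%.

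The wider pathway was read from a list of 94 other Wnt genes in 9 roles, of which 50 reached 1 TPM and were tested. Those under the limit included all 10 other secreted antagonists, so that DKK1 and DKK3 were the tested antagonists in these cells. Tested were 4 of 19 ligands, 2 of 3 ligand processing genes, 9 of 13 receptors, 1 of 7 genes of the R-spondin branch, 3 of 3 further DKK1 receptors, 16 of 17 relay genes, 9 of 10 nuclear partners and 6 of 12 targets. With stearate 3 of the 50 rose and 3 fell, beside 3.46% and 1.89% of all genes. With oleate 5 rose and 0 fell, beside 6.46% and 0.435%, and at the FDR alone 20 were higher and 0 lower, beside 23% and 2.7%, FZD2 being the lone gene lower at an unadjusted p under 0.05. For stearate against oleate 8 were lower and 0 higher, beside 4.78% and 1.6%. At the FDR alone 10 were higher and 7 lower with stearate, beside 13.5% and 5.97%, and 4 higher and 13 lower for stearate against oleate, beside 6.85% and 14.3%. These counts moved when single libraries were left out, as did the shares of all genes. Without CAY10566 replicate 3, 8 rose and 3 fell with stearate (5.76% and 1.97% of all genes) and 8 rose with oleate (10.6%). At the FDR alone, 16 were then higher and 7 lower with stearate (20.3% and 6.53%), and 23 and 0 with oleate (30.1% and 4.11%). For stearate against oleate 5 were then higher and 14 lower (7.85% and 17.2%). Without DMSO replicate 2, 1 rose and 3 fell with stearate (2.86% and 1.83%). With oleate 3 rose without oleate+DMSO replicate 3 (5.16%) and 8 without oleate+CAY10566 replicate 3 (8.38%). In the DMSO samples only, 8 rose and 2 fell with stearate, beside 6.22% and 1.86% of all genes, and 11 rose and 0 fell with oleate, beside 13.7% and 0.856%. In the CAY10566 samples only, 0 rose and 3 fell with stearate, beside 0.363% and 0.878%, and 0 rose with oleate, beside 0%, so few calls of a rise could hold in that fit with stearate and none with oleate. The median log2 fold changes of the 50 were 0.10, 0.13 and -0.04, against 0.06, 0.09 and -0.03 over all genes. After rescaling by size factors 1 rose and 3 fell with stearate, 3 rose with oleate, and 5 were lower for stearate against oleate. At the FDR alone it gave 8 higher and 9 lower with stearate, beside 7.92% and 10.2% of all genes. With oleate it gave 8 higher and 1 lower, beside 9.07% and 9.12%. For stearate against oleate it gave 6 higher and 13 lower, beside 10.4% and 11.5%. That rescaling turned the split of all genes called with stearate from 477 higher and 261 lower to 276 higher and 369 lower, that with oleate from 891 and 60 to 315 and 145, and that of stearate against oleate from 220 and 659 to 310 and 503.

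**Figure D4:**
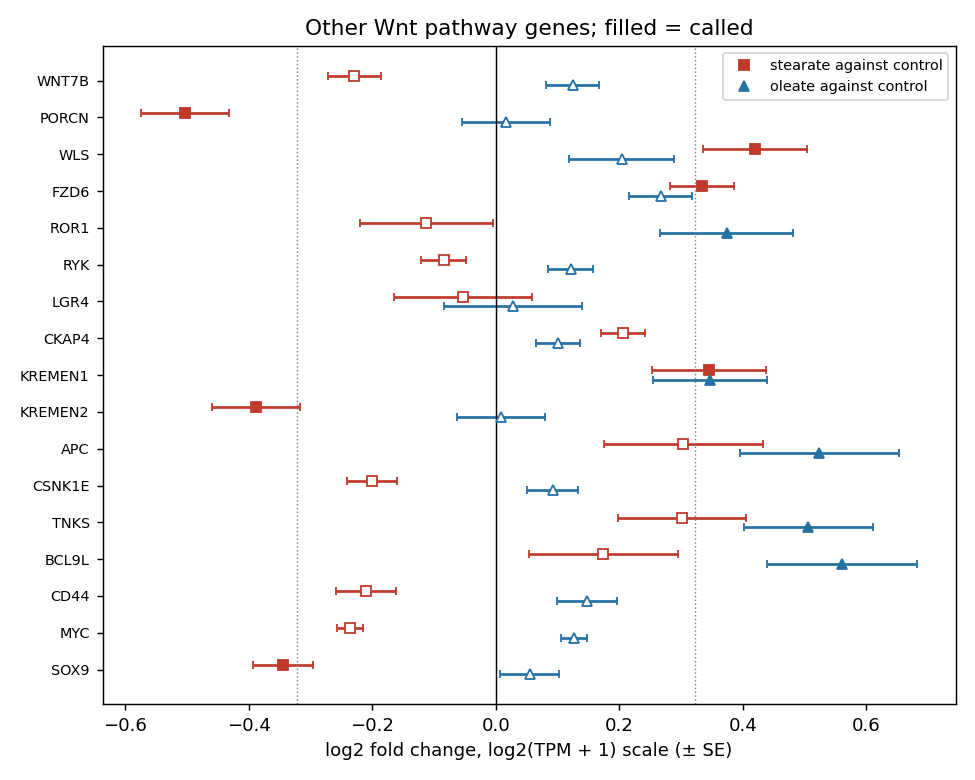
Log2 fold change (log2(TPM + 1) scale, ± SE, n = 6 each) of the 17 other Wnt genes named by rule, ordered by role, for stearate (squares) and oleate (triangles) against control, filled where called and with dotted lines at the fold limit. PORCN (-0.50), KREMEN2 (-0.39) and SOX9 (-0.34) are filled on the left for stearate, and BCL9L (0.56), APC (0.52) and TNKS (0.51) lie farthest right for oleate.

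Among the genes that make Wnt ligands, PORCN and WLS moved in opposite directions with stearate. PORCN, the acyltransferase that attaches a monounsaturated fatty acyl group to Wnt proteins, ranged from 27.46 to 34.88 TPM in control (median 30.4), from 18.24 to 23.77 with stearate (median 21.3) and from 26.7 to 34.28 with oleate (median 30.2). It fell with stearate by 0.50 (SE 0.07, adjusted p = 8.19e-05), with no overlap, and was 0.02 with oleate (SE 0.07, adjusted p = 0.897) and -0.52 for stearate against oleate (SE 0.07, adjusted p = 3.78e-05). The fall was called with each library left out, with size factors and among the DMSO and the CAY10566 samples separately. WLS, which carries Wnt proteins to the surface, ranged from 13.49 to 14.91 TPM in control and from 15.95 to 22.17 with stearate, and rose with stearate by 0.42 (SE 0.08, adjusted p = 0.00216), though not among the CAY10566 samples alone (0.30). WNT7B, the tested ligand with the highest mean, was at 29.6 ± 1.97 TPM in control, 25.1 ± 1.02 with stearate and 32.3 ± 1.19 with oleate (SD, n = 6). It gave -0.35 for stearate against oleate (SE 0.04, adjusted p = 9.35e-06), a call lost after size factors (-0.31) and after removal of the length and GC trend (-0.29).

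The further DKK1 receptors were KREMEN1 and KREMEN2, which help DKK1 draw LRP6 into the cell, and CKAP4. KREMEN1 ranged from 3.37 to 5.43 TPM in control (median 3.98), the highest being CAY10566 replicate 3, from 4.73 to 5.72 with stearate (median 5.42) and from 4.56 to 6.52 with oleate (median 5.40). It rose with stearate (0.34, SE 0.09, adjusted p = 0.0139) and with oleate (0.35, SE 0.09, adjusted p = 0.0118), and neither call held after size factors, without DMSO replicate 2, without DMSO replicate 3 or among the CAY10566 samples alone (0.25 with stearate and 0.08 with oleate). The oleate call was also lost without oleate+DMSO replicate 3 and after removal of the length and GC trend (0.28). Both were 0.42 without CAY10566 replicate 3 (adjusted p = 0.00143 and 0.000770). KREMEN2 ranged from 7.94 to 9.18 TPM in control, from 5.76 to 7.17 with stearate and from 7.36 to 10.39 with oleate. It fell with stearate by 0.39 (SE 0.07, adjusted p = 0.000973), a call that held with each library left out and was lost after removal of the length and GC trend (-0.28) and among the CAY10566 samples alone (-0.36). KREMEN2 was 0.01 with oleate (SE 0.07, adjusted p = 0.949) and -0.40 for stearate against oleate (SE 0.07, adjusted p = 0.000569), the latter call lost in the DMSO samples alone (-0.29). CKAP4, at 17.1 ± 0.635 TPM in control and 19.9 ± 0.636 with stearate (SD, n = 6), passed the FDR with stearate within the fold limit (0.21, SE 0.04, adjusted p = 0.000609).

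Of the receptors, FZD6, a Frizzled, was at 24.8 ± 1.85 TPM in control and 31.5 ± 1.90 with stearate (SD, n = 6) and rose by 0.33 (SE 0.05, adjusted p = 0.000206). This lay just past the fold limit and was lost after size factors (0.28), after removal of the length and GC trend (0.28), among the CAY10566 samples alone (0.31) and without any of 4 libraries (DMSO replicate 2, CAY10566 replicate 2, stearate+DMSO replicate 1 and stearate+CAY10566 replicate 3). ROR1, a receptor of β-catenin-independent Wnt signalling, was at 2.87 ± 0.732 TPM in control, 2.54 ± 0.243 with stearate and 3.98 ± 0.639 with oleate. It rose with oleate (0.37, SE 0.11, adjusted p = 0.0173), a call lost after size factors (0.30), after removal of the length and GC trend (0.30), among the CAY10566 samples alone (0.24) and without oleate+DMSO replicate 3. The value was 0.47 (adjusted p = 0.000535) without CAY10566 replicate 3. ROR1 was lower with stearate than with oleate (-0.49, SE 0.11, adjusted p = 0.00335), a call lost among the CAY10566 samples alone (-0.46). RYK, the receptor with the highest mean, was 0.12 with oleate (adjusted p = 0.0205) and -0.08 with stearate (adjusted p = 0.106), both within the fold limit. LGR4, the R-spondin receptor, was 0.03 with oleate and -0.05 with stearate (adjusted p = 0.883 and 0.775).

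Of the relay and nuclear genes, APC, TNKS and BCL9L rose with oleate in the groups of 6 samples. APC, a scaffold of the degradation complex, was at 2.64 ± 0.819 TPM in control and 4.17 ± 0.740 with oleate and rose by 0.52 (SE 0.13, adjusted p = 0.00781). TNKS, a tankyrase that marks axin for removal, was at 6.82 ± 1.58 and 9.98 ± 1.04 TPM and rose by 0.51 (SE 0.10, adjusted p = 0.00338). BCL9L, a co-activator of β-catenin, was at 99.8 ± 26.2 and 145 ± 13.04 TPM and rose by 0.56 (SE 0.12, adjusted p = 0.00420), its control group holding CAY10566 replicate 3 at 150.55 TPM. All 3 calls held with each library left out, with size factors and with the length and GC trend removed, and among the CAY10566 samples alone, where 0% of all genes were called higher with oleate, the values were 0.20 to 0.28. They were 0.63, 0.60 and 0.69 without CAY10566 replicate 3. With stearate the 3 genes were at 0.30, 0.30 and 0.17 and were not called, but without CAY10566 replicate 3 APC (0.41, adjusted p = 0.0128) and TNKS (0.39, adjusted p = 0.00335) were. In the DMSO samples, by the model of 6 conditions, 3 relay and 2 nuclear genes rose with stearate, beside 5.71% of all genes, and 5 and 2 with oleate, beside 13.2%. Those with stearate were APC (0.58), TNKS (0.49), CSNK1G1 (0.44), TLE4 (0.52) and BCL9 (0.44), the last 3 being named after their values were seen. Stearate against oleate gave -0.22 for APC (adjusted p = 0.242) and -0.20 for TNKS (adjusted p = 0.175). BCL9L was lower with stearate than with oleate (-0.39, SE 0.12, adjusted p = 0.0288), a call lost without any of 4 libraries (stearate+DMSO replicate 3, stearate+CAY10566 replicate 1 and oleate+DMSO replicates 2 and 3), among the CAY10566 samples alone (-0.25) and after removal of the length and GC trend (-0.25). CSNK1E, the relay kinase with the highest mean, passed the FDR with stearate within the fold limit (-0.20, SE 0.04, adjusted p = 0.00225), and was -0.16 without CAY10566 replicate 3.

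Of the 6 tested genes listed as Wnt targets, 3 were called lower with stearate than with oleate, MYC, CD44 and SOX9, beside 4.78% of all genes. CCND1 (-0.30), NKD1 (-0.05) and BAMBI (0.12), named to complete the 6, were not called. MYC, a growth-promoting transcription factor, ranged from 328.2 to 341.7 TPM in control, from 272.9 to 290.18 with stearate and from 348.4 to 368.94 with oleate, with no overlap between any of the 3 groups. It gave -0.36 for stearate against oleate (SE 0.02, adjusted p = 6.64e-10), -0.24 for stearate against control (adjusted p = 3.32e-07) and 0.13 for oleate against control (adjusted p = 0.00151), the last 2 within the fold limit. Of all genes, 3.49% had an oleate group wholly above the control group. SOX9, a transcription factor, ranged from 17.86 to 20.11 TPM in control and from 14.2 to 15.42 with stearate, and fell with stearate by 0.34 (SE 0.05, adjusted p = 7.62e-05), though not past the limit among the DMSO samples alone (-0.29). SOX9 gave -0.40 for stearate against oleate (SE 0.05, adjusted p = 8.46e-06). CD44, a surface glycoprotein, was at 194 ± 17.5 TPM in control, 167 ± 6.00 with stearate and 214 ± 10.4 with oleate, -0.36 for stearate against oleate (SE 0.05, adjusted p = 2.85e-05). The MYC and CD44 calls were lost after size factors (-0.32 each), and that of SOX9 was not. Many other pathways act on these genes.

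The genes whose pattern was most like that of DKK1 were found by Pearson's r of log2(TPM + 1) over the 18 samples, among 10141 other genes with a mean of at least 5 TPM, as a description. The 18 samples fall into the 3 fatty acid groups, which every r given here shares. The 5 highest were DPP7, a lysosomal peptidase (r = 0.938), KIFC3, a kinesin (0.935), SUMO3, a ubiquitin-like modifier (0.926), ST3GAL4, a sialyltransferase (0.920), and KRT80, a keratin (0.918). Their own changes were smaller: the log2 fold changes with stearate lay between -0.34 for KRT80 and -0.18 for SUMO3, and those with oleate between 0.07 for DPP7 and 0.21 for KRT80. The 5 lowest were IDH1, a cytosolic isocitrate dehydrogenase (-0.908), DHRS7 (-0.894) and DHRS2 (-0.869), both short-chain dehydrogenases, TUBB3, a tubulin (-0.863), and NT5DC1 (-0.863). DHRS2 moved most among these with stearate, from 171 ± 4.27 TPM in control to 267 ± 24.9, and was at 152 ± 9.03 with oleate (SD, n = 6). With oleate the log2 fold changes of TUBB3 (-0.202) and IDH1 (-0.197) were larger than that of DHRS2 (-0.174).

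**Figure D5:**
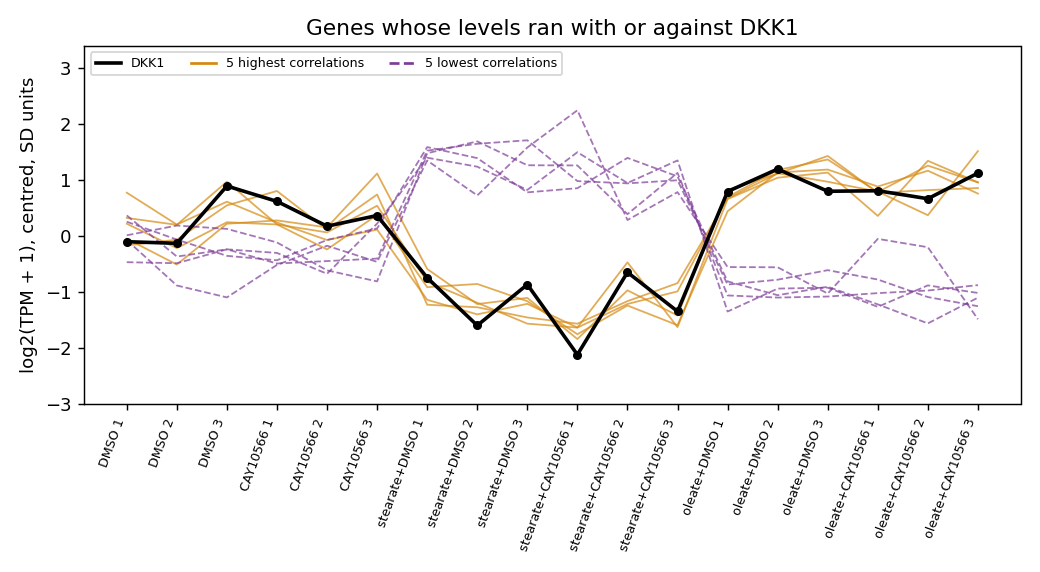
Log2(TPM + 1), centred and in SD units of each gene over the 18 samples, for DKK1 (black), the 5 genes with the highest correlation with it (solid orange) and the 5 with the lowest (dashed purple). The lines part in the 6 stearate samples, where DKK1 and the orange genes are low, and lie on the other side in the 6 oleate samples.

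Within the group, DKK3 (r = 0.56), TCF7L2 (0.51) and LRP5 (0.49) ran most with DKK1 over the 18 samples. Their r values stood at percentiles 88.3, 85.3 and 84.3 among genes, so many other genes ran as closely with DKK1. The values for LRP6 (0.07), ZNRF3 (0.13), TCF7 (0.04) and CTNNB1 (-0.000534) were near 0. These values share libraries and fatty acid groups and carry no test.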

How the data were processed

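RNA was measured in 18 samples, 3 replicates of 6 conditions, grouped from the sample labels. The authors sequenced 100 bp paired-end reads of stranded mRNA libraries. After trimming (Trim Galore), reads were aligned to GRCh38 (Ensembl release 99) by STAR 2.7.1a and expression was estimated by RSEM. TPM per gene is the unit of the table the authors deposited. Every column sums to the same total, so the depth is unknown, no interval for counting error is given, and the precision is that of the spread between replicates. A single line naming no gene was left out, and 56321 identifiers (93.12%) had a symbol. Gene coordinates come from GENCODE release 44, on the same build.

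Limma 3.58.1 in R 4.3.3 (lmFit, eBayes with a trend) was fitted to log2(TPM + 1) of the 13789 genes that averaged 1 TPM or more, with Benjamini-Hochberg adjustment over all of them; a call needed an FDR under 0.05 and a change beyond 1.25-fold. Fatty acids were compared in 3 groups of 6, CAY10566 over 9 against 9 with the fatty acid as a covariate, and within fatty acids and as interactions in a model of 6 conditions. The procedure was tested on simulated data.

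The genes, the lists of other Wnt genes and markers and the motifs were chosen with earlier results of these data known. Named are all 10 genes, every gene of the Wnt list called in a fatty acid comparison, the tested gene with the highest mean TPM in each role, and the 5 highest and 5 lowest correlations with DKK1. Alternatives were CAY10566 as a covariate, the DMSO or the CAY10566 samples only, leaving out each library, a block for the replicate number, a pseudocount of 0.1, no filter on TPM or a limit of 5, eBayes without trend, and rescaling by median-of-ratios size factors. A further alternative, chosen after seeing the data, fitted each library's dependence on transcript length and GC by splines of 3 degrees of freedom and subtracted it. Plots were made in Python 3.11.15 with matplotlib 3.10.9. Other experiments of the study were not analysed here.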

Additional observations from a re-analysis of the deposited data

Results flagged for a closer look

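Each of the 27 named Wnt genes in 3 fatty acid groups, 81 groups of 6 samples in all, was checked for a highest or lowest sample whose gap to its neighbour, divided by the range of the group, exceeded Dixon's critical value at the 95% level. Chance alone would mark about 1 in 20 groups, and 10 were marked. Of these, 8 were CAY10566 replicate 3, standing above the other 5 control samples. In that library LRP5 was at 55.8 TPM (others 42.35 to 43.32), LRP6 at 8.89 (4.52 to 5.51), ZNRF3 at 7.06 (4.58 to 5.33) and CTNNB1 at 141.01 (115.42 to 120.99). In the same library BCL9L was at 150.55 TPM (others 78.08 to 98.76), CSNK1E at 308.6 (257.49 to 274.7), KREMEN1 at 5.43 (3.37 to 4.03) and ROR1 at 4.33 (2.28 to 2.71). DKK1 was not marked in any group, and in that library it was at 6.19 TPM, within the other control samples. The other two were both MYC, at 341.7 TPM in CAY10566 replicate 2 (others 328.2 to 331.26) and at 348.4 TPM in oleate+DMSO replicate 2 (others 362.86 to 368.94).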

How the results depend on the processing

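No called value of the 8 tested genes reversed under an alternative. DKK1 stayed between -1.33 and -0.90 with stearate, 0.33 and 0.50 with oleate, and -1.80 and -1.35 for stearate against oleate over 28 alternatives. Of the other 7 genes, the count called with oleate (1) was 0 with no filter, with size factors, in the CAY10566 samples only and with the length and GC trend removed, and 2 in the DMSO samples only (ZNRF3 0.33 and TCF7L2 0.38, with 13.7% of all genes called higher). LRP6 was at 0.66 there, with an adjusted p of 0.0584 by limma in that fit and 0.0446 in the model of 6 conditions. With a library left out it ranged from 0 to 2: 0 without DMSO replicate 1, DMSO replicate 3, CAY10566 replicate 2 or oleate+DMSO replicate 2, and 2 without CAY10566 replicate 3. With stearate it ranged from 0 to 1 (LRP6, without CAY10566 replicate 3) and for stearate against oleate from 0 to 1 (DKK3, without that library or stearate+DMSO replicate 1). For CAY10566 and the interactions it stayed at 0. The Wnt list count with stearate (6, with 5.35% of all genes called) was 10 with a pseudocount of 0.1 (6.8%), 10 in the DMSO samples only (8.08%) and 3 in the CAY10566 samples only (1.24%), and 4 to 11 with a library left out, 11 without CAY10566 replicate 3 (7.72%) and 4 without DMSO replicate 2 (4.69%). With oleate (5, with 6.9%) it was 2 at a mean TPM of at least 5 (7.4%), 3 with size factors (3.34%), 11 in the DMSO samples only (14.5%), 0 in the CAY10566 samples only (0.0218%) and 3 with the length and GC trend removed (4.09%), and 3 to 8 with a library left out, 8 without CAY10566 replicate 3 (11.3%) or oleate+CAY10566 replicate 3 (8.9%) and 3 without oleate+DMSO replicate 3 (5.54%). For stearate against oleate (8, with 6.37%) it was 5 with size factors (5.9%) and 7 to 9 with a library left out. The cause of these shifts was not tested. Without CAY10566 replicate 3, all genes called with stearate went from 477 to 794 higher and from 261 to 271 lower. Those with oleate went from 891 to 1465 higher and from 60 to 92 lower. The replicate number as a block gave 458 higher and 262 lower genes with stearate and 866 and 58 with oleate, and changed no call on the 8 genes or the Wnt list. Pairing by number was not clear. Over 45 same-numbered pairs the correlation of deviations ran from -0.180 to 0.103 (median 0.012), with 2 over 0.1. Over 90 other pairs it ran from -0.124 to 0.171 (median -0.011), with 6 over 0.1. For 9 of 18 samples, the mean correlation with samples of other conditions was highest for their own number. TPM keeps no depth, so low genes such as AXIN2 and RNF43 allow no statement on change.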
